A study of Homo sapiens with 6 samples.

Results

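Of the dREG peaks called in K562 cells, those described here lay at the starts of long noncoding RNA (lncRNA) genes and at no protein-coding start. A peak was included when its interval came within 500 bp of any transcript start of a GENCODE lncRNA gene but of none of a protein-coding gene, on chromosomes 1 to 22 and X. This gave 1044 of 24707 peaks in the PRO-seq 1M list, 1576 of 38177 in the qPRO-seq 1M list and 657 of 15562 in the qPRO-seq 250k list. These lists are called standard, quick and low-input here, values are given in that order, and the peaks are called lncRNA start peaks. The rule used annotation alone and no measured value other than the position of each peak.

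The study compared 2 versions of precision run-on sequencing, which labels nascent RNA with biotin nucleotides in permeabilized cells and so maps RNA polymerases engaged in transcription. All 6 libraries came from untreated K562, an established human leukaemia cell line. PRO-seq 1M used the published protocol, with 3 affinity purifications and 11 PCR cycles, on 1M cells. qPRO-seq 1M and qPRO-seq 250k used a quick protocol with 1 purification, on 1M and 250k cells, with 11 and 14 PCR cycles. Each group had 2 biological replicates at least 3 passages apart, and 1 peak list stood for both. No spread between replicates could therefore be measured, and no p-value is given between groups. Read depth is unknown for these lists, so a longer list and a deeper library cannot be told apart. A start without a peak cannot be told apart from one whose reads were too few for a call. Intervals in parentheses are 95% intervals for counting error alone, Wilson for shares and Newcombe for differences of shares unless stated. Neighbouring peaks are not independent, so these intervals are too narrow.

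Long noncoding RNAs are transcribed by RNA polymerase II much as messenger RNAs are, but are not known to encode proteins. Many are capped and spliced. Some act in the nucleus, such as MALAT1 and NEAT1, and others are mainly precursors whose introns release small nucleolar RNAs (snoRNAs) or whose transcripts release microRNAs. Active promoters and enhancers fire in both directions, and dREG is a classifier that finds them from this pattern of run-on reads. Its score has no unit and was compared only within a list, as a percentile from 0 (lowest) to 100 (highest).

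The promoters of 7 lncRNA genes are shown because the results below return to them. They cover strong shared starts (SNHG5, SNHG16), a start with a TATA motif (SNHG7), 2 well-known nuclear or cytoplasmic RNAs (MALAT1, NORAD), and 2 microRNA hosts, one CpG-rich (MIR17HG) and one not (MIR222HG). Each runs from 250 bases before to 50 bases after the RefSeq start, 5′ to 3′ on the gene's strand, from build GRCh38.p14. Capitals mark matches, on either strand, to the motifs searched, which are listed after the sequences.
SNHG5: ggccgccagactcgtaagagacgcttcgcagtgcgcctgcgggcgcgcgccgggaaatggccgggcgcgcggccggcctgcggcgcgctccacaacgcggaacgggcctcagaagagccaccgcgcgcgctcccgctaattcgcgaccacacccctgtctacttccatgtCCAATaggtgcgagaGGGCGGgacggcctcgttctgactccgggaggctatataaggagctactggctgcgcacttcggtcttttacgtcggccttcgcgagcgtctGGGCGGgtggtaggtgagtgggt
SNHG16: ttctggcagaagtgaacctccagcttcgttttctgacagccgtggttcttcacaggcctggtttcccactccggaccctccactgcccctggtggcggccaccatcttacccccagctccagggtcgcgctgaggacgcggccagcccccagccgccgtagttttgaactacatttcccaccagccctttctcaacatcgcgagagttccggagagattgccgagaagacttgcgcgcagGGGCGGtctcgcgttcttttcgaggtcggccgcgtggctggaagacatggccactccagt
SNHG7: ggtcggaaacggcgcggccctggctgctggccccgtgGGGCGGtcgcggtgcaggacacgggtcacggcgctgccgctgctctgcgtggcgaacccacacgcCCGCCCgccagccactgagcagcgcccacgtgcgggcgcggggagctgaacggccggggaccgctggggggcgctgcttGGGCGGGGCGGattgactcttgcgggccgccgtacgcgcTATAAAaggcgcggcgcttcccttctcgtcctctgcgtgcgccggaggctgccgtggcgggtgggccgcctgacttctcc
MIR17HG: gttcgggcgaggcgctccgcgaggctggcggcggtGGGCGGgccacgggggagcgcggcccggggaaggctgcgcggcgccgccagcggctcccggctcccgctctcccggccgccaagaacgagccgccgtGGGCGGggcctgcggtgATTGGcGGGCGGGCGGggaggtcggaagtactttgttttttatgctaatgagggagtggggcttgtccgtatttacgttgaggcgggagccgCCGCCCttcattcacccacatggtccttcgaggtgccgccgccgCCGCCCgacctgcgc
NORAD: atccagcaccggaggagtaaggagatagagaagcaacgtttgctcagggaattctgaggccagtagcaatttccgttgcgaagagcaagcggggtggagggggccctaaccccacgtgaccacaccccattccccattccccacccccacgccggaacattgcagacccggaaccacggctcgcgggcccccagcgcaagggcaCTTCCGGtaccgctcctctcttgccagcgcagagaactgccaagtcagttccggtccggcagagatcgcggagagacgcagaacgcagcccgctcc
MALAT1: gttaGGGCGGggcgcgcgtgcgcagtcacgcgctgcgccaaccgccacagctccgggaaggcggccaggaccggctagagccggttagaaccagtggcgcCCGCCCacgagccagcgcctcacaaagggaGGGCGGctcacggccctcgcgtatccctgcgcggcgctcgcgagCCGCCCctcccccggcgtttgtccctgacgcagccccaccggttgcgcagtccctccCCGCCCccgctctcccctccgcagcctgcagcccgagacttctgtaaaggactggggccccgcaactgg
MIR222HG: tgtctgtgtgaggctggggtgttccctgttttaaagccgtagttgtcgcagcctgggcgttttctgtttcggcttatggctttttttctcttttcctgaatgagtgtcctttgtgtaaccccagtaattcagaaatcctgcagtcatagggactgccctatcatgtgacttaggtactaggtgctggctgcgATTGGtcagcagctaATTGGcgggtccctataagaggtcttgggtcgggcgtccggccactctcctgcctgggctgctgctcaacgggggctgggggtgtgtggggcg

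SNHG5 lies on the minus strand of chromosome 6 (chr6:85678684-85678983 for the window shown), and its window held 2 GC boxes and 1 CCAAT box. SNHG16 is on the plus strand of chromosome 17 (chr17:76557514-76557813), with 1 GC box. SNHG7 is on the minus strand of chromosome 9 (chr9:136728135-136728434), with 4 GC boxes and 1 TATA motif. MALAT1 is on the plus strand of chromosome 11 (chr11:65497488-65497787), with 5 GC boxes. NORAD is on the minus strand of chromosome 20 (chr20:36050911-36051210), with 1 ETS motif. MIR17HG is on the plus strand of chromosome 13 (chr13:91347437-91347736), with 6 GC boxes and 1 CCAAT box. MIR222HG is on the minus strand of chromosome X (chrX:45770218-45770517), with 2 CCAAT boxes. Its observed to expected CpG ratio was 0.51, against 1.20 for SNHG5 and 1.07 for MIR17HG.

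The motifs were searched on both strands. The letters AGATAA stand for the motif of the GATA factors, and GGGCGG for the GC box of the SP family. The letters CCGGAAG stand for ETS factors, among them GABP, and GCGCATGC for NRF1. The CCAAT box is its own name, and AAGATGGC was taken for YY1. The cyclic AMP response element (CRE) was searched as TGACGTCA, and AP-1, the Fos and Jun motif, as TGANTCA. The TATA motif was searched as TATAAA, and the E-box as CAGCTG. For TATA only the exact letters counted, so near matches, such as TATATAA in the SNHG5 promoter, were not marked. Matches may overlap one another. Over all 34961 RefSeq promoters of this length, 10.3% held GATA, 45.0% a GC box, 10.3% ETS, 3.06% NRF1 and 34.6% a CCAAT box. YY1 was held by 2.89%, CRE by 1.85%, AP-1 by 7.68%, TATA by 11.5% and the E-box by 18.0%. A match is a description of the letters and not evidence of binding.

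Most lncRNA genes had no sequence in the RefSeq table, so sequence features could be described for a minority only. Of the lncRNA genes with a start peak of their own, 219 of 853, 294 of 1220 and 147 of 576 had a promoter sequence. That is too few for a check of all lncRNA start peaks, and the shares below hold only for promoters in the table with a peak at the RefSeq start. A promoter was called CpG-rich with a GC content of at least 50% and an observed to expected CpG ratio of at least 0.6. In the standard list, 64.8% of 176 such lncRNA promoters were CpG-rich, against 89.7% of 7559 protein-coding promoters with a peak, a difference of -24.9 points (-32.2 to -18.2). In the quick list the share was 55.1% of 225, and the difference from protein-coding promoters was -33.4 points (-39.9 to -27.0). In the low-input list it was 66.1% of 124, with a difference of -24.8 points (-33.5 to -17.0). Of all 17267 promoters matched to a lncRNA or protein-coding gene, with or without a peak, 59.3% were CpG-rich, and the share in the quick list (48.6 to 61.5) could not be distinguished from that. The shares were below those of protein-coding promoters with a peak in each list.

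Among lncRNA promoters of the table without a peak in any list, 13.7% of 1855 were CpG-rich. Of the 108 with a lncRNA start peak in all 3 lists, 66.7% were. ETS, the letters bound by a family of activators that includes GABP, was found in 23.1% of these 108 and in 3.34% of the 1855, a difference of 19.8 points (12.8 to 28.6). GC boxes, bound by SP-family factors, followed the same order, with 63.0% and 16.3%. AP-1 motifs went the other way, with 3.70% and 13.6%. Protein-coding promoters showed the same directions between the 6177 with a peak in all 3 lists and the 6813 with none. Of these, 91.1% and 36.4% were CpG-rich, and 24.5% and 4.77% held ETS. GC boxes were found in 75.6% and 41.0%, and AP-1 in 3.76% and 8.06%. The contrasts are thus not particular to lncRNA promoters. Taken list by list, however, AP-1 motifs were found in 5.68%, 11.6% and 6.45% of lncRNA promoters with a peak. The quick list share exceeded that of its protein-coding promoters by 7.69 points (4.11 to 12.5). In the standard and low-input lists the intervals of this difference included 0. GATA motifs, the letters bound by erythroid GATA1, were found in 9.78% of the lncRNA promoters with a peak in the quick list and in 4.31% of protein-coding promoters with one, a difference of 5.47 points (2.20 to 10.1). That share was not above the 10.3% of all RefSeq promoters, and its interval (6.55 to 14.4) included the 8.35% of the matched promoters. GATA motifs were found in 10.2% of the 108 lncRNA promoters and in 15.7% of the 1855, a difference of -5.56 points (-10.3 to 1.76). Base composition differed as well: the median GC content was 62.0% in the 108 lncRNA promoters and 47.7% in the 1855. In the quick list it was 60.3% in the lncRNA and 66.0% in the protein-coding promoters with a peak. The part of base composition in these differences was not tested. A TATA motif placed 35 to 20 bases before the start was found in 3 of the 108 lncRNA promoters with a peak in all 3 lists (2.78%), near the 3.09% of all 17267 matched promoters.

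LncRNA start peaks took nearly the same share of each list. The share was 4.23% (3.98 to 4.48) in the standard list, 4.13% (3.93 to 4.33) in the quick list and 4.22% (3.92 to 4.55) in the low-input list. Peaks at protein-coding starts made up 62.1%, 48.2% and 67.2% of the lists, and distal peaks, with no transcript start within 500 bp, 31.9%, 45.8% and 26.5%. In the quick list the share by chromosome ran from 2.92% on chromosome 19 to 6.18% on chromosome 21.

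In strength they stood between the other 2 kinds of peak. The median score percentile of lncRNA start peaks was 47.1 in the standard list, 51.2 in the quick list and 49.0 in the low-input list. For peaks at protein-coding starts it was 60.0, 61.1 and 56.5, and for distal peaks 33.9, 39.6 and 35.2. The share of lncRNA start peaks with a score above the median of their list was lower than that of protein-coding start peaks, with differences of -13.3 points (-16.4 to -10.1), -9.52 points (-12.1 to -6.96) and -7.73 points (-11.6 to -3.79). It was higher than that of distal peaks by 16.2 (13.0 to 19.4), 12.6 (10.0 to 15.1) and 15.02 points (10.9 to 19.1). The strongest were not rare: 87, 146 and 60 of them reached the top decile of their list by score, or 8.33%, 9.26% and 9.13%.

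They were also of intermediate width, with medians of 460, 455 and 430 bp, against 480, 470 and 440 bp at protein-coding starts and 410, 410 and 400 bp for distal peaks. Peaks of one list can abut, and 39.8% of lncRNA start peaks in the standard list, 44.3% in the quick list and 31.7% in the low-input list lay within 20 bp of a neighbour. At protein-coding starts the shares were 50.4%, 56.9% and 30.6%. The difference was -10.5 points (-13.5 to -7.41) and -12.6 points (-15.2 to -10.1) in the standard and quick lists, and 1.06 points (-2.50 to 4.81) in the low-input list, where it could not be distinguished from 0.

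Peak centres clustered just upstream of the annotated lncRNA start. The median position of the centre was -41 bp in the standard list, -35 bp in the quick list and -46 bp in the low-input list, where negative values are upstream. At protein-coding starts it was -19, -21 and -25 bp. The positions were more scattered at lncRNA starts, as the plot of centres around starts shows: 38.7%, 35.6% and 42.0% of centres lay within 100 bp of the start, against 58.1%, 50.7% and 64.9% at protein-coding starts. The annotated start fell inside the peak for 615 of 1044 lncRNA start peaks in the standard list (58.9%, 55.9 to 61.9), 839 of 1576 in the quick list (53.2%) and 407 of 657 in the low-input list (61.9%). For protein-coding starts these shares were 73.1%, 65.1% and 79.7%.

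**Figure D1:**
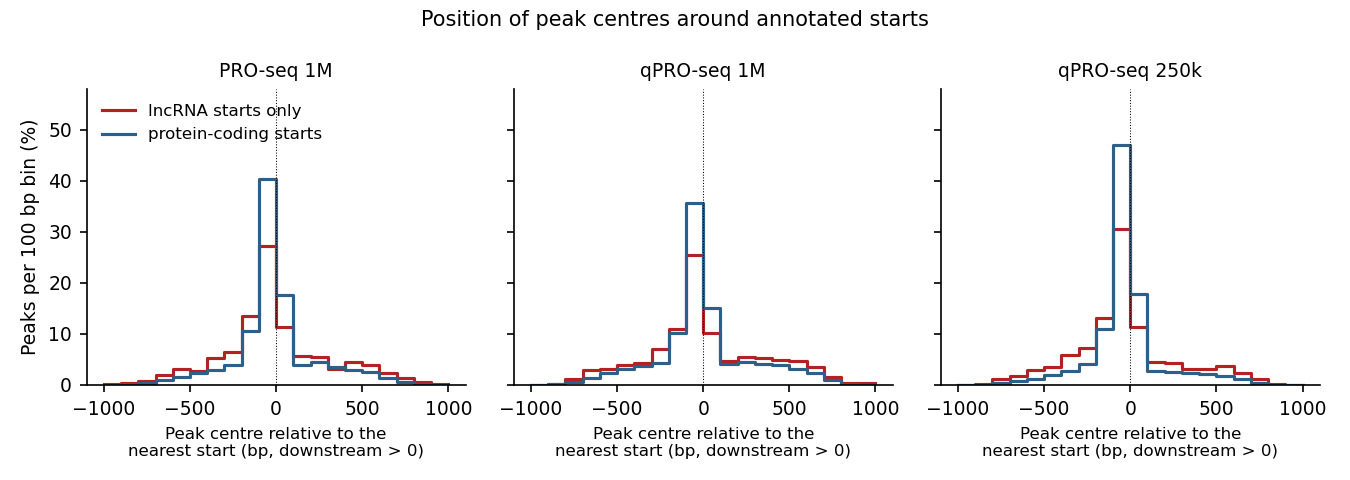
Position of peak centres relative to the nearest annotated transcript start (x axis, bp, downstream positive), as the percentage of peaks per 100 bp bin (y axis), for lncRNA start peaks (red) and peaks at protein-coding starts (blue) in each list. Both kinds peak in the 100 bp upstream of the start, and the lncRNA curve is lower within 100 bp of it and higher from 100 to 400 bp upstream.

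Peaks that contained the annotated lncRNA start were stronger than those beside it. Their median score percentile was 56.8 against 31.9 in the standard list, 61.9 against 37.4 in the quick list and 55.1 against 38.0 in the low-input list. The difference in the share above the list's median score was 27.3 points (21.3 to 33.0), 27.4 points (22.5 to 32.0) and 22.05 points (14.3 to 29.4). Peak width was not adjusted for, and the same contrast at protein-coding starts was not computed, so it is not shown to be particular to lncRNA starts. At the 500 bp limit of the rule, 68 peaks of the standard list lay in the last 100 bp inside it, with a median percentile of 33.4, and 71 in the first 100 bp outside it, with 26.5. In the quick list there were 134 and 127, with 37.7 and 38.0, and in the low-input list 42 and 37, with 28.3 and 30.9.

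By annotation, most belonged to intergenic lncRNAs. The nearest lncRNA gene was a lincRNA for 57.95%, 58.9% and 56.9% of peaks, an antisense gene for 28.3%, 28.6% and 28.6%, and a processed transcript, the GENCODE class of many snoRNA hosts, for 10.3%, 9.77% and 11.4%. Peaks of the antisense class had median percentiles of 42.8, 49.2 and 44.4, against 48.2, 51.5 and 51.4 for lincRNAs. The nearest lncRNA start lay outside every protein-coding gene in 80.7%, 80.1% and 82.2% of cases. It lay inside a protein-coding gene with the lncRNA on the opposite strand in 16.5%, 17.1% and 15.8%, and on the same strand in 2.78%, 2.79% and 1.98%. Matching shares of all annotated lncRNA genes were not computed, and the rule had removed peaks within 500 bp of a coding start. The shares by type and place thus describe only the peaks kept.

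The median distance to the nearest protein-coding start was 18775 bp in the standard list, 19027 bp in the quick list and 16809 bp in the low-input list. A smaller set lay close to one, with 157, 262 and 106 peaks between 500 and 1000 bp from a protein-coding start. These had median percentiles of 32.0, 38.2 and 38.0, against 52.8, 57.9 and 53.5 at 10 to 100 kb. With the lists split at 2000 bp, a limit chosen after these values were seen, 31.4% of the 229 near peaks and 51.2% of the 815 far ones in the standard list scored above the list's median. The difference was -19.7 points (-26.3 to -12.6) there, -18.1 points (-23.6 to -12.2) in the quick list and -18.1 points (-26.6 to -8.94) in the low-input list. Among lncRNA start peaks, those near a coding start thus scored lower. Distances ran from the peak, and the rule had removed every peak within 500 bp of a coding start. The contrast therefore holds for the peaks left by the rule and not for all lncRNA starts beside a coding gene.

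Within 10 kb of a protein-coding start, the most common arrangement was divergent, with the lncRNA and the coding gene pointing away from each other. It made up 48.5% of 392 peaks in the standard list (43.6 to 53.4), 52.9% of 601 in the quick list (48.9 to 56.9) and 52.2% of 253 in the low-input list (46.0 to 58.3). Convergent pairs made up 30.4%, 30.1% and 28.5%, and pairs on the same strand 21.2%, 17.0% and 19.4%. Matching shares of all annotated lncRNA starts within 10 kb were not computed, so these do not set starts with a peak apart.

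Counted by gene, 853 of 14936 annotated lncRNA genes had a start peak of their own in the standard list (5.71%, 5.35 to 6.09), 1220 in the quick list (8.17%, 7.74 to 8.62) and 576 in the low-input list (3.86%, 3.56 to 4.18). Of genes of any type, 23.4%, 25.0% and 19.3% had a start peak in these lists. Protein-coding genes had one in 52.9%, 54.5% and 44.0% of cases. A further 1492, 1446 and 1241 lncRNA genes had a start peak only where a protein-coding start lay within 500 bp of the peak, so more lncRNA genes were marked beside a coding start than on their own. The number of genes marked on their own moved with the length of the list: with each list reduced to its 15562 top-scored peaks it was 584, 594 and 576.

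In at least 1 list, 1346 lncRNA genes had a start peak of their own. Of these, 489 had it in all 3 lists (36.3%), 269 in the standard and quick lists but not the low-input list (19.99%), and 423 in the quick list alone (31.4%). The standard list alone held 78, both quick-protocol lists 39, the low-input list alone 31, and the standard list with the low-input list 17. Matching shares for other genes were not computed, so these do not set lncRNA genes apart. Counted by joined region, as described below, the shares lay near those of all regions. They were 34.8% against 34.5% in all 3 lists, and 35.7% against 37.0% in the quick list alone. The 489 genes were longer than the 12138 lncRNA genes without any start peak, with median lengths of 12294 and 4998.5 bp. Several distinct annotated starts were found in 51.3% of them against 22.2%, a difference of 29.1 points (24.6 to 33.5), and a gene with more starts had more places where a peak could count. The share of genes with more than 1 exon was 84.9% against 84.6%, a difference of 0.24 points (-3.26 to 3.22).

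Groups of lncRNA genes with known roles were marked to different extents, as the bar plot of gene groups shows. Of 109 listed genes that matched the annotation, 39 had a start peak of their own in the standard list, 43 in the quick list and 34 in the low-input list, beside the 5.71%, 8.17% and 3.86% of all lncRNA genes given above. In all 3 lists 32 had one, and 48 had no start peak of any kind in any list. The groups name well-studied genes and do not represent lncRNAs at large. Percentiles given for a gene are those of its top start peak in each list, which need not be the same peak. For SNHG12, TUG1, MIR100HG and LINC-PINT, among others, the top peaks did not all overlap between lists.

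**Figure D2:**
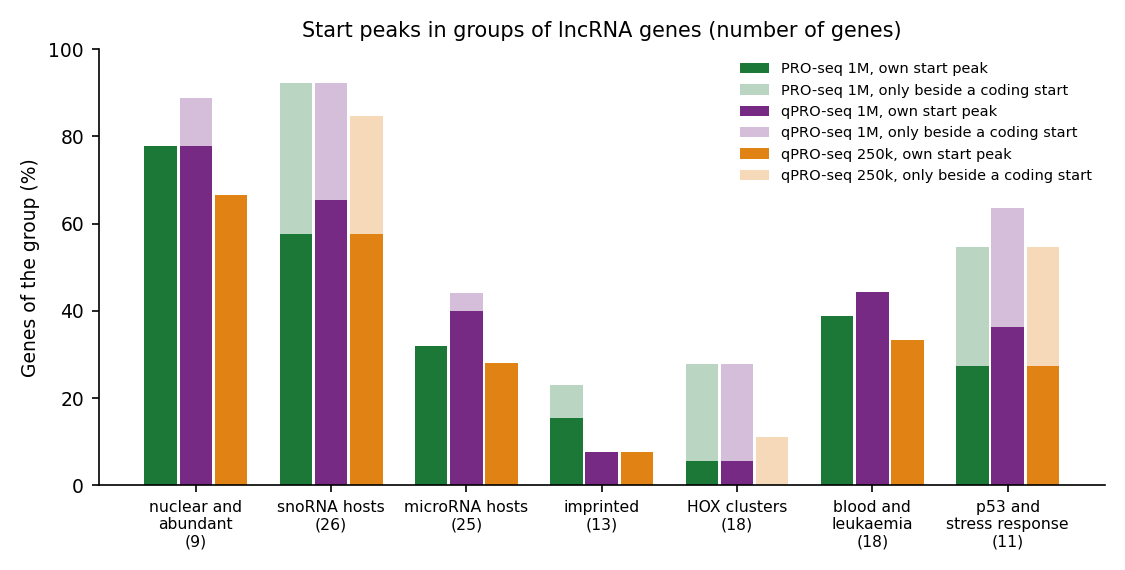
Percentage of genes in each group (y axis) with a lncRNA start peak of their own (solid) or with a start peak only beside a protein-coding start (pale), for PRO-seq 1M (green), qPRO-seq 1M (purple) and qPRO-seq 250k (orange), with the number of genes in parentheses. The snoRNA hosts and the nuclear and abundant lncRNAs stand highest by own start peaks, and the imprinted and HOX groups lowest.

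Hosts of snoRNAs, which guide chemical modification of ribosomal RNA, were the best marked large group. Of 26 genes, 15, 17 and 15 had a start peak of their own, 14 of them in all 3 lists. The top peak of SNHG5 stood at percentile 98.3 in the standard list, 94.4 in the quick list and 98.7 in the low-input list, and that of SNHG16 at 98.2, 94.8 and 95.3. SNHG6 had 98.9, 95.6 and 92.5, SNHG21 98.8, 96.4 and 91.3, and SNHG15 98.2, 96.2 and 82.8. The lowest of these values was the 82.8 of SNHG15. The SNHG5 peaks were 700, 670 and 660 bp wide, with centres at -117, -97 and -127 bp from the RefSeq start whose promoter is printed above.

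Other hosts ranged widely in rank. SNHG7, the only printed promoter with the exact letters TATAAA, stood at 75.4, 62.1 and 76.1, with centres at -26, -26 and -6 bp from its start. SNHG8 stood at 95.8, 80.2 and 74.9, SNHG12 at 77.5, 79.4 and 76.0, SNHG25 at 93.6, 80.3 and 87.7, and DANCR at 80.2, 75.4 and 55.5. SNHG11 stood at 62.8, 79.9 and 31.6 and SNHG26 at 74.7, 51.4 and 39.5, both lowest in the low-input list. SNHG17 lay below the median of all 3 lists, at 21.6, 49.6 and 27.2, and EPB41L4A-AS1 had low peaks at 44.5 and 10.8 and none in the low-input list. SNHG19 was the most uneven, at 3.74, 30.2 and 63.8, but its top peak in the low-input list overlapped neither of the others. Its start lies 340 bp from that of TRAF7, and peaks that came within 500 bp of the TRAF7 start were not counted.

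Several hosts start close to a coding gene, so their peaks at that start were counted to the coding gene. The starts of GAS5 and ZBTB37 lie 74 bp apart, those of SNHG1 and SLC3A2 188 bp, those of SNHG9 and RPS2 99 bp, those of SNHG10 and GLRX5 7 bp, and those of ZFAS1 and ZNFX1 41 bp. SNHG3 and SNHG4 share a start position with transcripts of RCC1 and MATR3. For GAS5 and SNHG1, the quick list alone had a further peak away from the shared start, at percentiles of 30.2 and 30.4, and for ZFAS1 the low-input list had one, at 33.5. SNHG3, SNHG4, SNHG9 and SNHG10 had none of their own. Of the snoRNA hosts, only SNHG14 and SNHG18 had no start peak of either kind in any list.

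Nuclear and abundant lncRNAs had peaks of their own in 7, 7 and 6 of 9 genes, 5 of them in all 3 lists. KCNQ1OT1, which is transcribed antisense to KCNQ1 and silences neighbours on the paternal chromosome, stood at 96.3, 90.1 and 92.0. TERC, the RNA template of telomerase, stood at 94.0, 96.9 and 85.7, and NORAD, an abundant cytoplasmic RNA that binds Pumilio proteins, at 82.5, 82.8 and 76.8. NEAT1, the scaffold of paraspeckles, was weaker at 33.0, 62.6 and 53.8. All 4 starts were thus marked in every list, with NEAT1 near or below the middle of the standard and low-input lists.

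MALAT1, an abundant RNA of nuclear speckles, carried 3 peaks in the standard list, 5 in the quick list and 3 in the low-input list, around 15 annotated starts. Its top peaks stood at 66.8, 69.5 and 86.3. In the standard list and the low-input list the top peak lay downstream of the RefSeq start, and the peak over the promoter printed above stood at 56.9 and 75.3. In the quick list the promoter peak was itself the top one. A start of TUG1 lies 947 bp from one of MORC2. TUG1 had a peak of its own at 16.1 in the standard list and at 83.2 in the low-input list, while in the quick list its peaks counted to the coding start. CRNDE was weak at 21.9 and 37.3 and had none in the low-input list, and CYTOR had a peak of its own in the quick list alone, at 51.8. OIP5-AS1 had none, and the nearest peaks lay 48409, 46999 and 48399 bp away.

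Of 25 microRNA hosts, 8, 10 and 7 had a start peak of their own, 7 of them in all 3 lists. MIR17HG, the host of the growth-promoting miR-17-92 cluster, stood at 89.4 in the standard list, 65.2 in the quick list and 74.7 in the low-input list, over its CpG-rich promoter. DLEU2, the host of miR-15a and miR-16-1, stood at 77.4, 88.1 and 68.7, and MIR29B2CHG at 86.1, 87.1 and 48.7. MIRLET7BHG, the host of let-7 family members, stood at 53.9, 60.6 and 28.9. MIR181A2HG stood at 63.6, 95.6 and 46.2 and MIR4458HG at 82.9, 91.3 and 45.1. For MIR29B2CHG, MIRLET7BHG, MIR181A2HG and MIR4458HG, the low-input list gave the lowest rank.

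MIR222HG differed most between lists of all listed genes with a peak in each. Its score was 0.357 in the standard list, at percentile 9.10, 0.920 in the quick list, at 86.4, and 0.562 in the low-input list, at 50.1. The peaks were 650, 680 and 380 bp wide, with centres at -173, -53 and -33 bp from the RefSeq start, and all 3 spanned that start. LUCAT1, a stress-induced lncRNA, showed a like gap between the standard and quick lists, at 13.2 in the standard list and 81.5 in the quick list, with no peak in the low-input list. Without replicates neither gap could be set against an error. MIR100HG had peaks at 34.5 and 72.4 in the standard and quick lists, and MIR4435-2HG and MIR193BHG had peaks of their own in the quick list alone, at 54.3 and 67.3. MIR155HG, known from activated B cells, MIR205HG, known from epithelia, and MIR137HG, known from neurons, were among those without a start peak in any list.

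**Figure D3:**
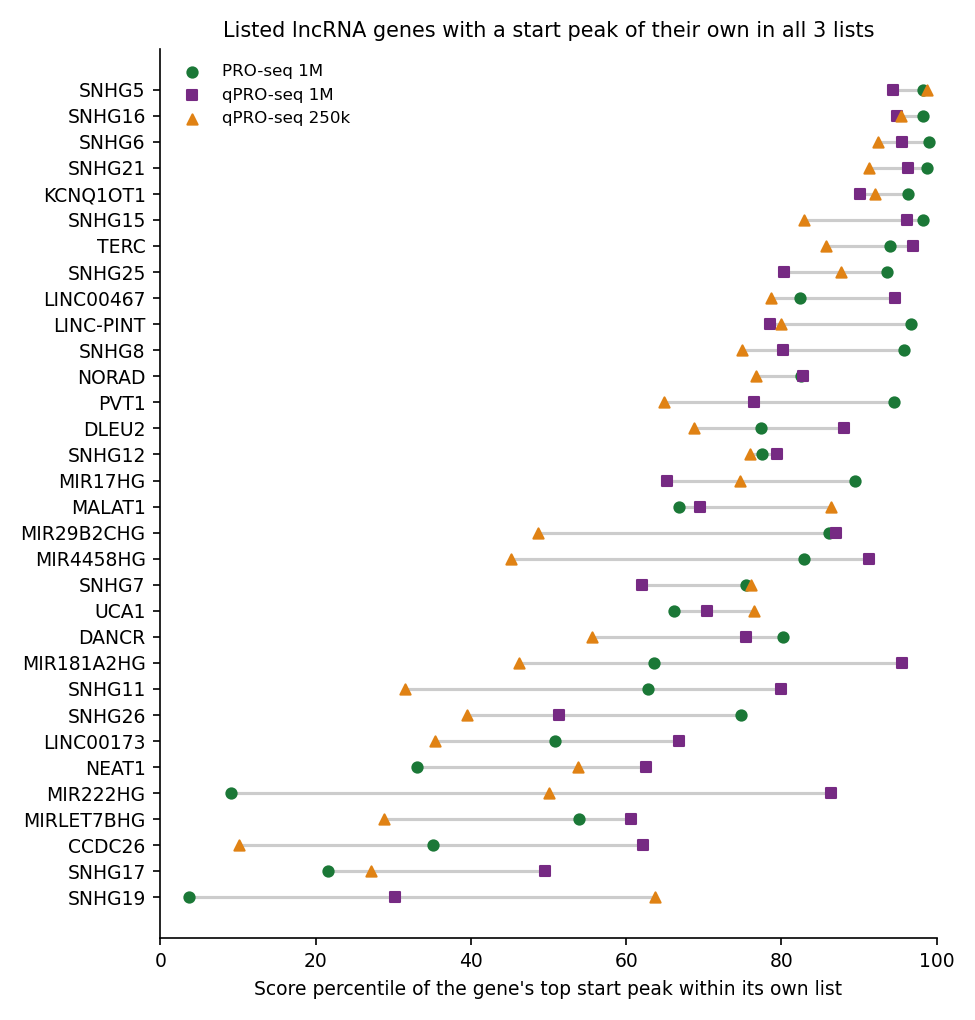
Score percentile, within its own list, of the top lncRNA start peak (x axis) for the 32 listed lncRNA genes with such a peak in all 3 lists (y axis, ordered by mean), in PRO-seq 1M (circles), qPRO-seq 1M (squares) and qPRO-seq 250k (triangles). SNHG5 and SNHG16 lie together at the top, while MIR222HG and SNHG19 spread widely. The top peak of a gene was not always the same peak in each list.

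Imprinted and HOX-cluster lncRNAs had few start peaks of their own, with shares of 15.4%, 7.69% and 7.69% and of 5.56%, 5.56% and 0%, beside the 5.71%, 8.17% and 3.86% of all lncRNA genes. With so few genes, these shares do not set either group apart from lncRNA genes at large. Of 13 imprinted genes, 2, 1 and 1 had such a peak, and KCNQ1OT1 was the one found in all 3 lists. GNAS-AS1 had a weak peak in the standard list, at 10.3. H19 and MEG3, which are active in the embryo, had none, and the peak nearest to H19 lay 75201 bp away in the quick list. Of 18 HOX-cluster genes, 1, 1 and 0 had one, namely HOXB-AS3 at 57.2 and 35.9 in the standard and quick lists, and 4, 4 and 2 more were marked beside a coding start. HOTAIR and HOTAIRM1 had no start peak in any list.

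Among 18 lncRNAs tied to blood or leukaemia, 7, 8 and 6 had a start peak of their own, 6 of them in all 3 lists. PVT1, the neighbour of MYC, stood at 94.5, 76.5 and 64.9, and LINC-PINT, whose 20 annotated starts carried 4, 4 and 2 such peaks, at 96.6, 78.5 and 79.9. UCA1 stood at 66.1, 70.4 and 76.5, LINC00173 at 50.8, 66.7 and 35.4, and CCDC26 at 35.2, 62.2 and 10.2. MIAT had a peak of its own in the quick list alone, at 25.4. BGLT3, which lies in the beta-globin cluster, and GATA2-AS1 had none: the peaks nearest to a GATA2-AS1 start lay 992, 1012 and 1082 bp away. Of 11 genes of the p53 and stress group, 3, 4 and 3 had one. They included NEAT1 and LINC-PINT, given above, and LINC00467 at 82.4, 94.6 and 78.7, while DINOL and TP53TG1 were marked only beside the starts of CDKN1A and CROT, 99 and 166 bp away.

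Peaks of one list were taken as overlapped where a peak of another list had 1 bp or more in common with them. In the standard list, 92.1% of lncRNA start peaks were overlapped by the quick list (90.4 to 93.6), against 90.6% of all peaks of that list. By the low-input list it was 59.5% (56.5 to 62.4), against 60.2%. Of those in the quick list, 65.8% were overlapped by the standard list (63.4 to 68.1), against 63.3%, and 44.3% by the low-input list (41.9 to 46.8), against 44.1%. Of those in the low-input list, 92.1% were overlapped by the standard list (89.8 to 93.9) and 96.8% by the quick list (95.2 to 97.9), against 91.2% and 96.6%. These shares were thus close to those of their whole lists, and they lay low where the overlapping list was the shorter one.

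**Figure D4:**
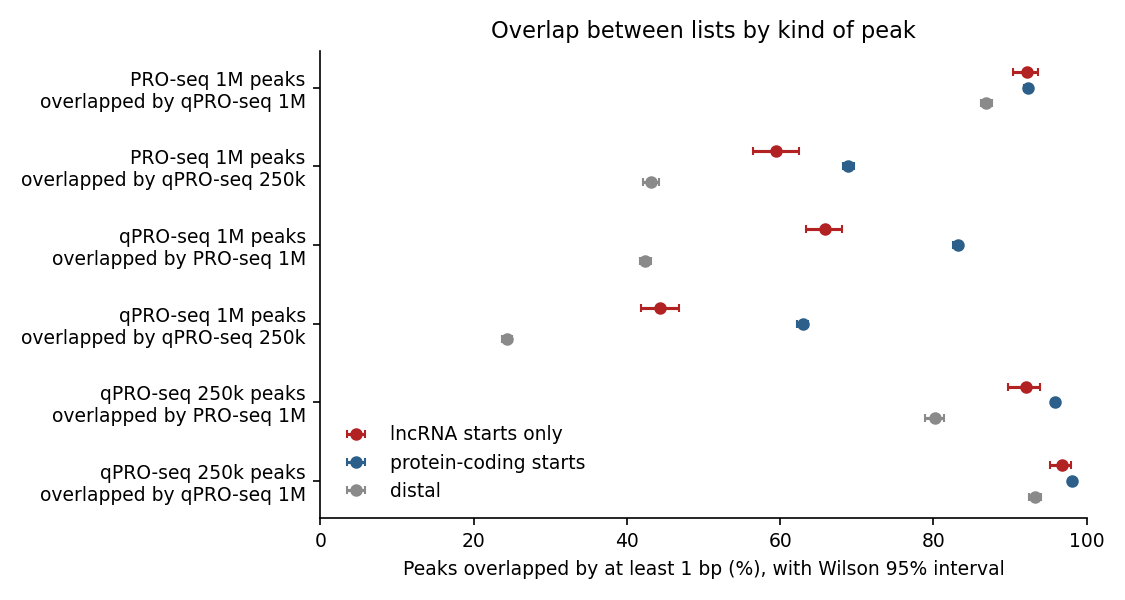
Percentage of peaks of one list overlapped by at least 1 bp by another list (x axis) for each ordered pair of lists (y axis), for lncRNA start peaks (red), peaks at protein-coding starts (blue) and distal peaks (grey), with Wilson 95% intervals. In all 6 pairs the lncRNA start peaks lie between the other kinds, close to protein-coding starts (92.1% and 92.3%) for PRO-seq 1M peaks overlapped by qPRO-seq 1M.

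Since strong peaks are overlapped more often, the kinds of peak were also compared within deciles of the list by score. In the quick list, lncRNA start peaks were overlapped by the standard list less often than protein-coding start peaks of like score, with a difference of -13.1 points (-15.2 to -10.9), and likewise by the low-input list, with -11.6 points (-13.7 to -9.42). They were overlapped more often than distal peaks of like score, by 16.2 points (14.0 to 18.4) and 13.4 points (11.3 to 15.6). These intervals sum binomial variances over the deciles. In the lowest decile, 34.1% of 164 lncRNA start peaks, 49.7% of protein-coding start peaks and 15.05% of distal peaks were overlapped by the standard list. In the fifth decile it was 55.7%, 78.0% and 40.8%, and in the top decile 100%, 99.8% and 95.4%. In overlap by the standard list, the order of the 3 kinds was thus clear at low and middle scores, and the gaps were smallest in the top decile.

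**Figure D5:**
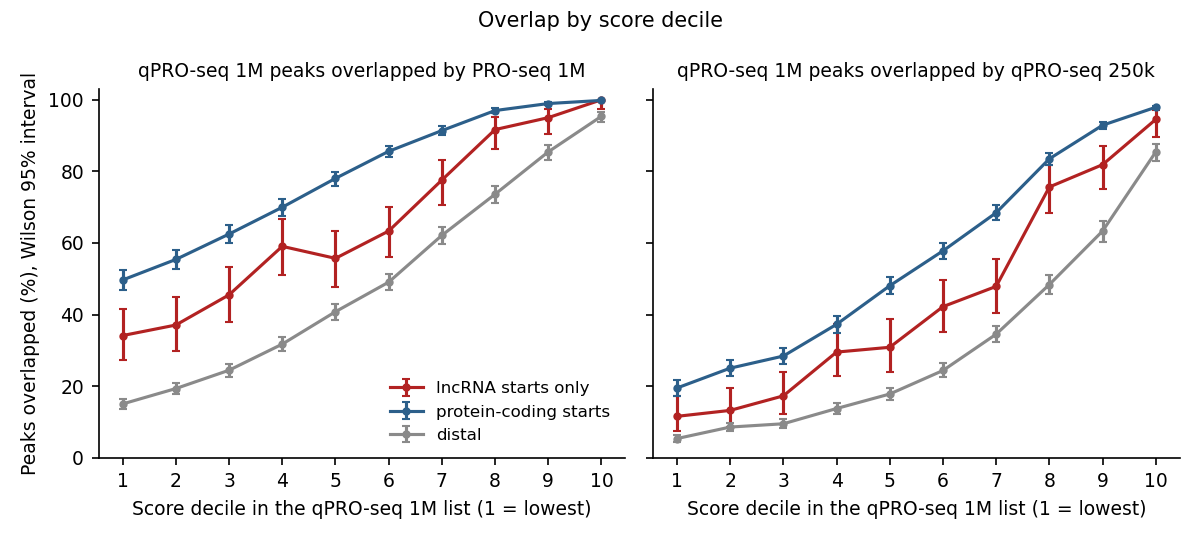
Percentage of qPRO-seq 1M peaks overlapped by PRO-seq 1M (left) and by qPRO-seq 250k (right) (y axis, Wilson 95% intervals) in each score decile of the list (x axis), for lncRNA start peaks (red), peaks at protein-coding starts (blue) and distal peaks (grey). The lncRNA line runs between the other lines in deciles 1 to 9 of both panels, and in the left panel the lines come closest in the top decile.

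The other lists showed smaller differences from protein-coding starts. For peaks of the standard list, lncRNA starts were overlapped by the quick list more often by 2.67 points (0.95 to 4.39) at like score, and the difference was -1.36 points (-3.99 to 1.27) by the low-input list. The former became -0.14 points (-1.83 to 1.56) without adjustment for score, so its direction was not firm. The latter became 0.90 points (-1.69 to 3.49) when overlap had to reach 50% of each peak, but -9.39 points (-12.5 to -6.32) without adjustment for score and -6.89 points (-9.76 to -4.01) within deciles of width. For peaks of the low-input list the difference was -2.84 points (-5.03 to -0.65) by the standard list and -0.82 points (-2.41 to 0.77) by the quick list. The interval of the first reached 0 with a window of 1000 bp (-4.41 to 0.13) and with 50% overlap (-5.50 to 0.62). Against distal peaks the differences were 1.88 points (0.16 to 3.61) and 6.77 points (4.07 to 9.47) for the standard list, and 7.57 points (5.22 to 9.92) and 1.65 points (-0.01 to 3.31) for the low-input list. The difference of 1.88 points turned to -2.39 points with overlap of at least 50%.

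Few lncRNA start peaks stood alone outside the longest list, and the same held for all peaks. No other list overlapped 6.70% of them in the standard list, 30.8% in the quick list and 2.13% in the low-input list, against 8.53%, 33.3% and 2.29% of all peaks. Both other lists overlapped 58.3%, 40.9% and 91.0%, against 59.3%, 40.7% and 90.1%. When the peaks of the 3 lists were joined wherever they overlapped, 34308 regions resulted, and 1522 held a lncRNA start peak. Of these, 159 also held a peak at a protein-coding start, which left 1363. Peaks of all 3 lists were present in 34.8% of the 1363 (32.3 to 37.3), against 34.5% of all regions, 54.8% of regions at protein-coding starts and 16.3% of distal regions. A peak of the quick list alone made up 35.7% (33.2 to 38.2), against 37.0% of all regions, 17.0% at protein-coding starts and 55.2% of distal regions.

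The order of scores was partly shared between lists. Over 760 regions with lncRNA start peaks in the standard and quick lists, Spearman's rho between the percentiles was 0.71, against 0.74 over 11007 regions at protein-coding starts. It was 0.66 over 515 regions for the quick and low-input lists, and 0.62 over 482 for the standard and low-input lists. The points share the cell line, and regions are not independent replicates, so these are descriptions.

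The strongest regions held in common were mostly at little-studied genes. Among the 465 regions with a lncRNA start peak in all 3 lists, the highest mean percentile was at AL713998.1, a lincRNA on chromosome 6, with 99.9, 99.9 and 98.9. Its peak in the standard list spanned 67888761 to 67889590 and lay 745777 bp from the nearest protein-coding start, that of ADGRB3. Next came FLJ42969 with 99.2, 98.1 and 99.8, and the shared start region of AC016912.1 and LINC02583, 47 kb from a start of EPAS1, with 99.1, 98.0 and 99.6. AC123595.1 had 99.96, 99.5 and 96.8, and AL355297.2, antisense at ARID1B and 707 bp from its start in the standard list, had 96.3, 99.95 and 99.4. The other 5 were AL118558.3, ENTPD1-AS1, LINC01270, AP002478.1 and AC092944.1, with mean percentiles from 97.6 to 98.5. Of these 10 regions, the ARID1B one alone lay within 10 kb of a protein-coding start.

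Peaks that no other list overlapped had low scores. Their median percentile was 15.5 over 70 peaks of the standard list, 26.3 over 486 of the quick list and 8.19 over 14 of the low-input list, against 50.1, 62.4 and 49.8 for the other lncRNA start peaks of each list. The 3 top-scored lncRNA start peaks that no other list overlapped were, in the standard list, those of AL358074.1, AJ003147.1 and AJ003147.2, at percentiles of 48.6, 46.5 and 43.4, out of 70. In the low-input list they were those of AC138932.2, SNHG12 and AL109615.3, at 47.95, 39.7 and 25.04, out of 14. In the quick list AL160408.3, AC009117.2 and UBXN7-AS1 stood at 88.5, 86.0 and 85.9, out of 486. The tops of sets of such different size are not comparable between lists. The AC009117.2 peak lay 404740 bp from any peak of another list, while those of AJ003147.1, AJ003147.2, UBXN7-AS1, SNHG12 and AL109615.3 had one within 500 bp.

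Of the lncRNA genes with a start peak of their own, most carried 1 such peak: 638 of 853, 871 of 1220 and 462 of 576. At least 3 were found at 45 of 853 genes in the standard list, 80 of 1220 in the quick list and 15 of 576 in the low-input list. SNHG12 had most in the quick list, with 7, and had 2 in the standard list and 5 in the low-input list, within a gene of 4595 bp with 14 annotated starts. PCBP1-AS1 had 6, 5 and 3 around 127 annotated starts. LINC02028 had 3, 5 and 2, FTX had 2, 5 and 1, and AC007405.1 had 2, 5 and 2. LINC02453 and MALAT1 tied with these at 5.

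The cell type was checked against start peaks of blood genes. The 6 erythroid genes GATA1, TAL1, KLF1, LMO2, HBG1 and HBG2 all had one in the standard and quick lists, and all but LMO2 had one in the low-input list. Among genes of other blood lineages, SPI1 had a start peak in each list, and CD3E, MS4A1 and PAX5 had none. The labels call K562 lymphoblastoid, and the erythroid genes were marked.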

How the data were processed

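The deposited files were 3 lists of dREG peaks from 6 libraries, 1 list for each group of 2 replicates, and whether replicates were pooled is not given in the sources used here. The dREG score was used as deposited and has no fixed unit. The p-value of each peak, also as deposited, carries no statement of adjustment and was used only as a filter. Per the submitters' processing notes, fastp 0.20.0, Bowtie2 2.3.5.1, deepTools 3.1.3, UMI-tools and build hg38 (GRCh38) were used, with no role stated. Per the labels' protocols, adapters held a 6 nt random identifier and sequencing read 37 nt. Depth is unknown, so precision is given by counting intervals alone.

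Gene models were GENCODE release 29: 14936 lncRNA genes (lincRNA, antisense, processed transcript and smaller classes, without TEC) and 19864 protein-coding genes, with starts of all transcripts. Peak starts count from 0 in the files and are printed from 1. LncRNA start peaks, protein-coding start peaks and distal peaks were classed by distance of the interval (500 bp) and compared within 10 score groups weighted by the number of lncRNA start peaks. Joined regions share at least 1 bp, and abutting peaks were not joined. The planned CpG and motif windows around peak centres needed a genome, so the RefSeq promoter table (300 bases, GRCh38.p14) was used in their place. It matched 2421 lncRNA and 14875 protein-coding genes. The planned repeat comparison was not run. Genes named were those of 7 fixed lists with a peak in at least 1 list, the 10 strongest shared regions, the 3 strongest unshared peaks of each list and the 5 genes with most peaks in the longest list. Others, such as hosts beside a coding start and listed genes without a peak, were chosen after their values were seen. The set of peaks and the gene lists were chosen with earlier results of these data known. Alternatives were a window of 1000 bp, p of at most 0.01, equal list sizes, merged peaks, TEC genes added, overlap of at least 50%, no score adjustment and width groups. The computations were tested on simulated data (Python 3.11.15, pandas 2.3.3, numpy 2.4.6, scipy 1.17.1, matplotlib 3.10.9). One gene of the cell type check is not reported here, so the genes of other lineages given are not the full set checked.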

Additional observations from a re-analysis of the deposited data

How the results depend on the processing

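No paired analysis was possible because 1 list stands for both replicates of a group, and for the same reason no replicate could be left out. Of the values under alternatives, 59 stayed within their interval or, for gene counts, within 1.5 times, 40 moved and 3 reversed. With a window of 1000 bp, the share of lncRNA start peaks in the quick list was 4.35%, and their overlap by the standard list was 63.2% and by the low-input list 41.6%. With p of at most 0.01, the overlap of peaks of the standard list by the quick list was 90.3%. With each list reduced to its 15562 top-scored peaks, 594 lncRNA genes had a start peak of their own in the quick list, against 584 in the standard list and 576 in the low-input list. The overlaps then were 79.7% and 78.5% for the standard list (by the quick list and by the low-input list), 76.5% and 73.9% for the quick list (by the standard list and by the low-input list), and 78.5% and 76.0% for the low-input list (by the standard list and by the quick list). With peaks merged within 500 bp the share in the quick list was 3.89%.

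When overlap had to reach 50% of each peak, the 6 overlaps, in the same order, were 79.6%, 49.4%, 52.5%, 34.6%, 79.6% and 84.3%. The difference from protein-coding starts then was 0.90 points for the standard list by the low-input list, a reversal, and -8.49 and -7.66 points for the quick list. The difference from distal peaks was -2.39 points for the standard list by the quick list, a reversal, 3.75 points by the low-input list, 10.5 and 9.84 points for the quick list, and 4.22 points for the low-input list by the standard list. Without score adjustment, the difference from protein-coding starts was -0.14 points for the standard list by the quick list, a reversal, -9.39 points by the low-input list, and -17.3 and -18.6 points for the quick list. From distal peaks it was 5.23, 16.4, 23.4, 19.9, 11.9 and 3.49 points, in the order of the overlaps. Within width groups, the difference from protein-coding starts was 0.85, -6.89, -16.5 and -17.1 points for the first 4 pairs, and from distal peaks 11.6, 19.5 and 16.3 points for the second to the fourth. The interval of the difference of low-input peaks from protein-coding starts, by the standard list, reached 0 with the 1000 bp window (-2.14 points) and with 50% overlap (-2.44 points), and so did that of standard peaks by the quick list with the 1000 bp window (-0.25 to 3.26) and within width groups (-0.89 to 2.59). The cause was not tested. Windows over the whole peak and the repeat comparison were not run for want of a genome. TEC genes changed no call. Unknown depth limits every count of absent starts.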
